A study of Mus musculus with 10 samples.

Results

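Tetraspanins are small membrane proteins, and the 26 genes described here are those whose symbol is Tspan followed by a number and Cd9, Cd37, Cd53, Cd63, Cd81, Cd82 and Cd151. The rule took them by gene symbol from 24704 genes measured on 10 Affymetrix arrays, and each was measured by 1 probe set. The arrays carried RNA of cells isolated from the livers of female C57BL/6N mice, aged 10 weeks when feeding began, and labelled as primary liver sinusoidal endothelial cells (LSEC). One group of 5 arrays came from mice fed a CDAA diet with 31% of its calories as fat and 1% cholesterol, and the other 5 from mice fed a control diet (Std). Feeding lasted 10 weeks by titles and protocol, although a duration field says 10 days. No sample label gives a genetic change, and the mice lacking Gata4 that the design text of the series names are not analysed here. Each array is a pool of 3 mice, so the spread between arrays is that between pools. The cells were enriched with beads against CD146 and a value belongs to the whole isolate and not to 1 cell type.

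Tetraspanins cross the membrane several times and bind each other and their partner proteins sideways, which gathers integrins, proteases and receptors into small membrane domains. Most are found at the cell surface, and CD63 is best known from late endosomes, lysosomes and the vesicles that cells release. In vessels, CD151 accompanies laminin-binding integrins, TSPAN12 assists the norrin receptor Frizzled-4, and TSPAN18 acts on a calcium channel of endothelial cells. CD37 and CD53 belong to leukocytes and TSPAN8 to epithelia. A subgroup called TspanC8 escorts the membrane protease ADAM10 to the surface.

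Of the 26 tetraspanin genes, 7 rose and 7 fell with the CDAA diet, and 12 did not pass. A gene passed where limma gave it a p under 0.05 after Benjamini-Hochberg correction across the 24704 genes. Changes are mean log2 signal with CDAA less that with Std, so that 1 unit is a doubling of signal. The called share was 53.8% of tetraspanins against 16.6% of all genes. For rises alone the share of all genes was 7.49%, and for falls 9.13%. Dim genes are seldom called, and among the 12352 genes at or above the median mean signal 35.1% were called in a fit of these genes alone, beside 15 of the 23 tetraspanins among them (65.2%). The median change of the 26 genes was -0.15, beside -0.02 over all genes. Tspan8, Cd63, Tspan33, Cd53, Cd9, Tspan6 and Tspan3 rose, and Tspan18, Tspan15, Tspan2, Cd81, Tspan17, Tspan14 and Tspan13 fell. For 13 of the 26 genes the arrays of the diets did not overlap at all, 6 with every CDAA array above and 7 with every CDAA array below, whereas 13.9% of all genes had no overlap (6.16% above and 7.73% below).

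**Figure D1:**
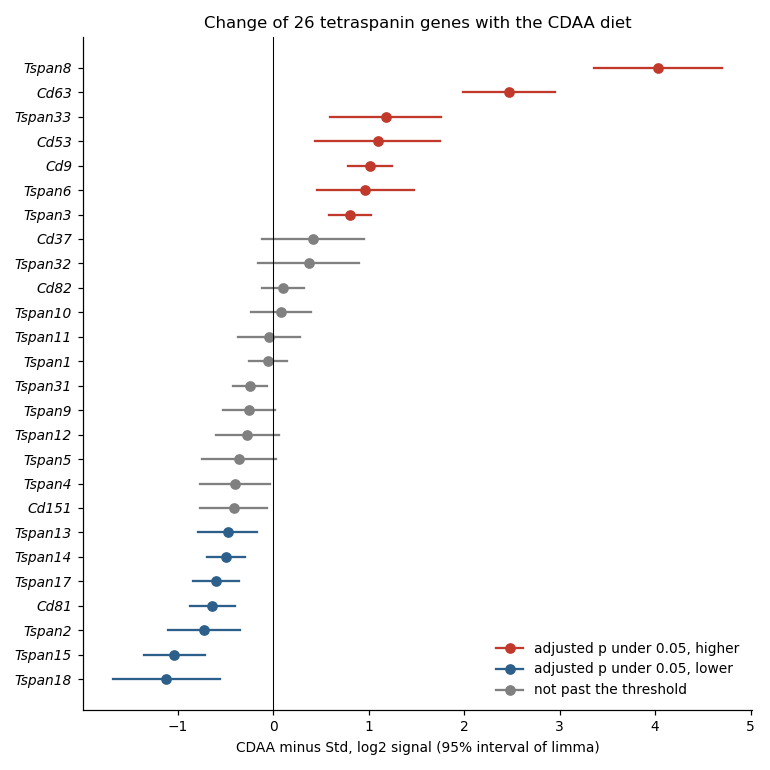
Change of each of the 26 tetraspanin genes in log2 signal, CDAA minus Std (horizontal axis), with the 95% interval of the limma fit over 5 and 5 arrays; red marks genes that rose, blue genes that fell and grey genes that did not pass. Tspan8 at 4.03 and Cd63 at 2.46 lie apart from the other 24 genes, which lie between -1.12 and 1.18.

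Markers placed the isolate as follows. The 12 LSEC markers had list means of 12.17 to 12.32 in Std and 10.81 to 11.82 in CDAA, and 10 of the 12 fell. The mean of 12 pan-endothelial markers was 11.13 to 11.30 in Std and 9.82 to 10.89 in CDAA, lowest on CDAA 3 and next on CDAA 1. Bile duct markers (7 of 7 rose) had list means of 4.65 to 5.89 in Std and 7.53 to 8.45 in CDAA. Recruited macrophage markers, counted without Cd9, had list means of 4.37 to 5.28 in Std and 7.50 to 8.93 in CDAA, and 7 of 8 rose. For stellate cells and fibroblasts, 6 of 10 markers rose and the others did not pass. Of 10 Kupffer cell markers 1 rose and 4 fell, and of 7 hepatocyte markers 2 rose and 2 fell. Neutrophil markers stood at a list mean of 9.99 on Std 3, 3.62 to 3.89 on the other Std arrays and 4.96 to 5.90 in CDAA. None of 7 lymphocyte and 7 neutrophil markers passed. What these cells contributed to a tetraspanin value was not tested, and in such bulk RNA fewer cells of a type and less RNA per cell cannot be told apart.

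Among tetraspanins of epithelia, Tspan8 had the largest change of all members. TSPAN8 is a surface protein of gut, pancreas and other epithelia that binds integrins and EpCAM. On Std 1 to Std 5 the log2 signal of Tspan8 (probe set 216350_at) was 5.44, 4.70, 5.18, 4.69 and 3.62, and on CDAA 1 to CDAA 5 it was 9.11, 8.51, 9.18, 8.15 and 8.83. The lowest CDAA array lay well above the highest Std array, and Std 5 was the lowest of its group. The means were 8.76 ± 0.43 (SD, n = 5) and 4.73 ± 0.70 (SD, n = 5), a difference in signal of 16.3-fold. On Std 5 the signal lay below the array median of 3.89, where it is not known to exceed background. The fold size thus depends on an unknown floor. In limma the log2 change was 4.03 ± 0.31 (SE, adjusted p = 1.94e-05), and an exact two-sided permutation test over the 252 arrangements of the arrays gave p = 0.00794, the smallest it can give. The mean of the bile duct markers followed the same array order in part: in Std it was highest on Std 1 and lowest on Std 5, and in CDAA it was lowest on CDAA 4, as for Tspan8. That CDAA order was not particular to bile duct markers: the recruited macrophage, stellate, Kupffer and hepatocyte marker means were also lowest on CDAA 4, and were highest on CDAA 3, as Tspan8 was. The change was 3.77 without CDAA 1 and CDAA 3, and 3.39 in a fit that held the pan-endothelial marker mean as a covariate (limma adjusted p = 0.00994). It lost its call with the bile duct marker mean as the covariate, at 0.87 (limma adjusted p = 0.979), and with the recruited macrophage marker mean, at 1.69 (limma adjusted p = 0.522). Each covariate, the pan-endothelial mean included, differed between the diets, so these fits cannot fully separate the diet from the covariate. Of all 24704 genes 0 passed with the bile duct mean, 65 with the macrophage mean and 218 with the pan-endothelial mean. A lost call in these fits is therefore not particular to Tspan8. Tspan1, the other epithelial member, stayed below the array median of 3.89 in both diets (2.39 and 2.44), where signal is not known to exceed background.

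The sequence before the RefSeq start of Tspan8 is shown because this gene moved most, and that of Tspan15 because it had the smallest p among those that fell. Both are 250 bases long, from build GRCm38.p6, read 5′ to 3′ on the strand of the gene, and capitals mark a match to a searched motif. Tspan8 lies on the plus strand (chr10:115817034-115817283) and Tspan15 on the minus strand (chr10:62231219-62231468).
Tspan8: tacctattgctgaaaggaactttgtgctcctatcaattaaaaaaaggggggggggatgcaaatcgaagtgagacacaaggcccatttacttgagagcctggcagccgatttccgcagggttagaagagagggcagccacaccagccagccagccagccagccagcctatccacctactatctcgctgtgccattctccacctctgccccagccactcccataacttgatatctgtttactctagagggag
Tspan15: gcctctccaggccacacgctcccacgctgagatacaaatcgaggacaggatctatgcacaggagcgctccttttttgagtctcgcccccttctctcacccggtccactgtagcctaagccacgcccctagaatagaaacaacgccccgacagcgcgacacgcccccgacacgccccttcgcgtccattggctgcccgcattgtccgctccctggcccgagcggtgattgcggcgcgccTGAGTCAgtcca
The motifs searched on both strands were the E-box read by MYC and the MiT/TFE factors, the AP-1 motif and a motif of GATA factors, and matches of different motifs were allowed to overlap. Of the 26 members 25 had promoter windows in RefSeq, 35 windows of 300 bases in all, some of which belong to 1 gene. The E-box, CACGTG, was in 2 of the 35 (Cd37 and Tspan4) and in 7.15% of all 32851 windows. The AP-1 motif, TGANTCA, was in 2 (Tspan15, in capitals above, and Tspan4) and in 7.81% of all windows. The GATA motif, AGATAA, was in 2 (Tspan1 and Tspan32) and in 11.2% of all windows. The capitals are a match of letters and not a known site.

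Among the tetraspanins named by CD number, which many cell types share, Cd63 and Cd9 rose, Cd81 fell, and Cd82 and Cd151 did not pass. Cd63 (12512_at), the tetraspanin of late endosomes and lysosomes, had log2 signals of 5.25, 5.39, 5.10, 5.18 and 4.54 on Std 1 to Std 5 and of 7.89, 7.47, 7.87, 6.76 and 7.79 on CDAA 1 to CDAA 5. The groups did not overlap, and CDAA 4 was the lowest of its group by a clear step. Cd63 rose by 2.46 ± 0.22 (SE, limma adjusted p = 4.60e-05), a 5.52-fold difference in signal. It kept its call once the pan-endothelial mean was a covariate, at 1.87 (limma adjusted p = 0.0210), but not with the bile duct mean, at 0.99 (limma adjusted p = 0.979), or the recruited macrophage mean, at 0.90 (limma adjusted p = 0.666). No gene of the whole table passed with the bile duct mean, only 65 did with the macrophage mean and 218 with the pan-endothelial mean. Each of these means itself differed between the diets.

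Cd9 (12527_at), a tetraspanin of adhesion and membrane fusion that is also used as a marker of recruited macrophages in scarred liver, rose to a similar level on each CDAA array. Its log2 signals were 9.30, 9.61, 9.80, 9.62 and 9.56 on Std 1 to Std 5 and 10.58, 10.56, 10.76, 10.59 and 10.47 on CDAA 1 to CDAA 5. All CDAA arrays lay above all Std arrays, and the CDAA arrays spanned less than the Std arrays did. The means of 10.59 ± 0.10 and 9.58 ± 0.18 (SD, n = 5) differed by 1.01 ± 0.10 (SE, limma adjusted p = 9.73e-05). The change was 0.96 without CDAA 1 and CDAA 3 and 0.86 with the pan-endothelial covariate, which Cd9 passed (limma adjusted p = 0.0425). Cd9 did not pass with the recruited macrophage covariate, at 0.49 (limma adjusted p = 0.650), or the bile duct covariate, at 1.09 (limma adjusted p = 0.979). Only 65 of all genes passed with the former covariate and none with the latter, and 218 passed with the pan-endothelial covariate. Each covariate itself differed between the diets.

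Cd81 (12520_at), the close relative of Cd9 that associates with the B cell co-receptor and with integrins, went the other way. It read 12.54, 12.57, 12.41, 12.54 and 12.62 on Std 1 to Std 5 and 11.76, 12.09, 11.62, 12.07 and 11.95 on CDAA 1 to CDAA 5. Every CDAA array was below every Std array, with CDAA 3 and CDAA 1 the lowest. Cd81 fell by 0.64 ± 0.11 (SE, limma adjusted p = 0.00205), or 1.56-fold. With the pan-endothelial covariate, which differed between the diets and left 218 of the 24704 genes called, its estimate was -0.29 and did not pass.

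Cd151 (12476_at), the partner of laminin-binding integrins, read 10.09, 10.23, 10.03, 10.03 and 10.10 on Std 1 to Std 5 and 9.31, 10.15, 9.29, 9.96 and 9.69 on CDAA 1 to CDAA 5. CDAA 1 and CDAA 3 were low while CDAA 2 lay among the Std arrays. The change of -0.42 (95% interval -0.77 to -0.07) did not pass (limma adjusted p = 0.104), but did without CDAA 2, at -0.53. Cd82, known as a suppressor of metastasis, ranged from 8.55 to 8.83 in Std and from 8.55 to 8.92 in CDAA, with a change of 0.10 (95% interval -0.12 to 0.32).

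**Figure D2:**
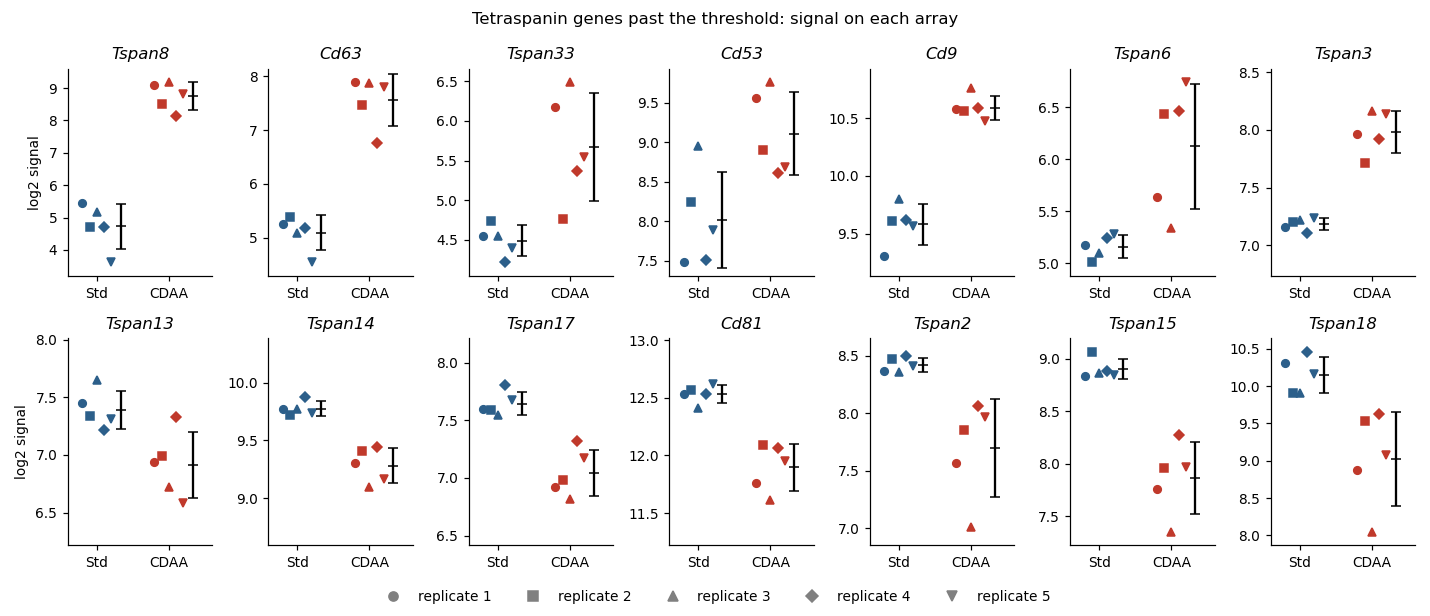
Log2 signal of the 14 tetraspanin genes past the threshold, 1 panel each with its own vertical axis; points are single arrays (Std blue, CDAA red, marker shapes give the replicate number, which the labels do not state to be a pairing) and black bars the mean and SD of 5 arrays. In 12 of the 14 panels the diets do not overlap, and they do for Cd53 and Tspan13. This follows in part from showing only genes past the threshold. Over all genes 13.9% had no overlap, and the share among all called genes was not counted.

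In the TspanC8 subgroup, 3 of 6 members fell and 1 rose, beside 9.13% and 7.49% of all genes. Among genes at or above the median signal 35.1% were called in either direction. Tspan15 (70423_at), which directs ADAM10 towards cadherins, had log2 signals of 8.84, 9.07, 8.86, 8.88 and 8.84 on Std 1 to Std 5 and of 7.76, 7.96, 7.35, 8.28 and 7.97 on CDAA 1 to CDAA 5. The groups did not overlap, and CDAA 3 was the lowest array. Tspan15 fell by 1.04 ± 0.15 (SE, limma adjusted p = 0.000737), which is 2.05-fold in signal. With the pan-endothelial covariate, which differed between the diets and left 218 genes called, its estimate was -0.47 and did not pass (limma adjusted p = 0.211).

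Tspan17 (74257_at) and Tspan14 (52588_at), also ADAM10 escorts, were lower on every CDAA array than on any Std array. Tspan17 read 7.60, 7.59, 7.55, 7.81 and 7.67 on Std 1 to Std 5 and 6.92, 6.98, 6.82, 7.32 and 7.17 on CDAA 1 to CDAA 5, and fell by 0.60 ± 0.11 (SE, limma adjusted p = 0.00317). Tspan14 read 9.78, 9.72, 9.77, 9.88 and 9.74 on Std 1 to Std 5 and 9.30, 9.40, 9.10, 9.44 and 9.16 on CDAA 1 to CDAA 5, and fell by 0.50 ± 0.09 (SE, limma adjusted p = 0.00378). CDAA 4 stood nearest to the Std arrays for both. With the pan-endothelial covariate each had an estimate of -0.29 and neither passed.

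Tspan33 (232670_at), an ADAM10 escort of red cell precursors, macrophages and activated B cells, went against the other called members of its subgroup. It read 4.55, 4.74, 4.55, 4.22 and 4.40 on Std 1 to Std 5 and 6.17, 4.76, 6.49, 5.37 and 5.55 on CDAA 1 to CDAA 5. CDAA 3 and CDAA 1 were high, while CDAA 2 exceeded the highest Std array only in the second decimal. Tspan33 rose by 1.18 ± 0.27 (SE, limma adjusted p = 0.0103), by 0.73 without CDAA 1 and CDAA 3 (limma adjusted p = 0.0287), and had an estimate of 0.10 with the pan-endothelial covariate, which did not pass. Only 218 of the 24704 genes passed with that covariate, which itself differed between the diets. The recruited macrophage marker mean was also highest on CDAA 3 and CDAA 1, at 8.93 and 8.71 against 7.50 to 7.95 on the other CDAA arrays. The stellate, Kupffer, hepatocyte, bile duct and neutrophil marker means were highest on the same CDAA arrays.

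Tspan5 ranged from 5.97 to 6.89 in Std and from 5.79 to 6.19 in CDAA and did not pass, with a change of -0.36 (95% interval -0.75 to 0.03). Tspan10 was below the array median in both diets. Adam10 itself, the protease that these proteins escort, had means of 10.16 (CDAA) and 10.05 (Std), and the change of 0.11 missed the threshold (limma adjusted p = 0.455). Counted with Adam10, 13 genes of the protease and its substrates were measured, of which 6 rose and 3 fell, beside 7.49% and 9.13% of all genes. Among genes at or above the median signal 35.1% were called in either direction. The largest changes were those of the epithelial cadherin Cdh1, which is also a bile duct marker (3.07), the receptor Notch2 (1.35) and the hyaluronan receptor Cd44 (1.34). The genes that fell were Notch1 (-0.75), Notch4 (-0.70) and the endothelial cadherin Cdh5 (-0.64), which is also a pan-endothelial marker.

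Of the tetraspanins tied to endothelium, Tspan18 fell and Tspan12 did not pass. Tspan18 (241556_at), whose protein binds the calcium channel Orai1 in endothelial cells, read 10.31, 9.91, 9.91, 10.46 and 10.16 on Std 1 to Std 5 and 8.87, 9.53, 8.05, 9.62 and 9.07 on CDAA 1 to CDAA 5. There was no overlap, and the CDAA arrays were far more spread than the Std arrays, with CDAA 3 lowest. Tspan18 fell by 1.12 ± 0.26 (SE, limma adjusted p = 0.0105), and by 0.74 without CDAA 1 and CDAA 3 (limma adjusted p = 0.0199). Its estimate was -0.01 once the pan-endothelial mean was a covariate (limma adjusted p = 0.992). That mean itself differed between the diets, and 218 of the 24704 genes passed in that fit.

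Tspan12 (269831_at), the norrin co-receptor, read 9.19, 9.39, 9.19, 9.47 and 9.15 on Std 1 to Std 5 and 8.70, 9.14, 8.60, 9.40 and 9.20 on CDAA 1 to CDAA 5. Only CDAA 1 and CDAA 3 lay clearly below the Std arrays, and the change of -0.27 did not pass (limma adjusted p = 0.280). Its partners in the norrin receptor complex were lower: Lrp5 fell by 0.97, the receptor Fzd4 by 0.82 and Lrp6 by 0.59. The ligand gene Ndp was below the array median in both diets and did not pass. Among the CDAA arrays the mean of these 4 partner genes was lowest on CDAA 3 and highest on CDAA 4, as were the pan-endothelial and LSEC marker means. The median change of the pan-endothelial markers was -0.69. The part of endothelial content in these falls was not tested.

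**Figure D3:**
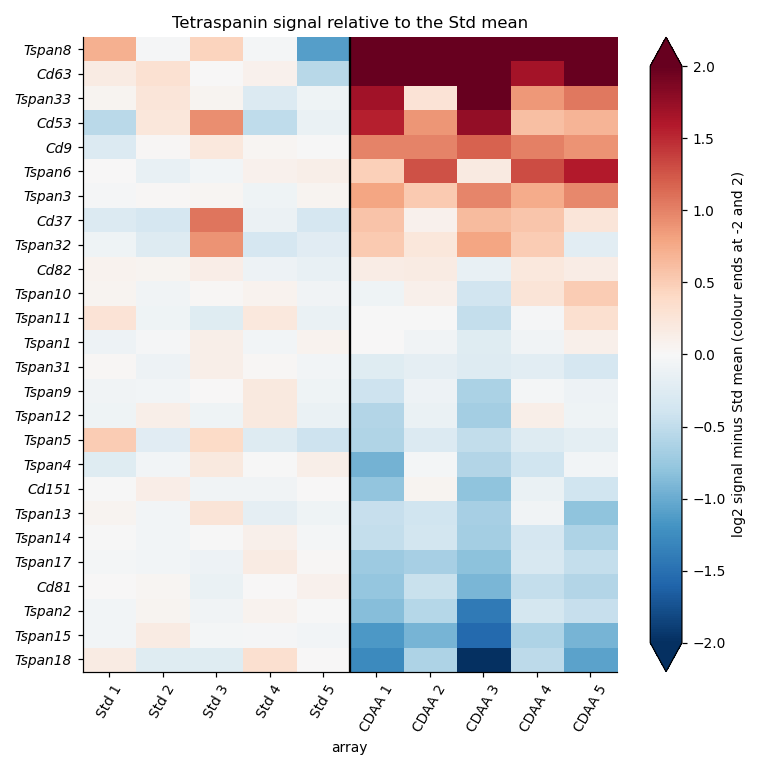
Log2 signal of the 26 tetraspanin genes (rows, ordered by change) on the 10 arrays (columns), as the difference from the mean of the 5 Std arrays; red is higher, blue is lower, and colours end at -2 and 2. CDAA 3 is the deepest blue of the CDAA columns for 6 of the 7 genes that fell, and Std 3 stands out in the rows of Cd37, Tspan32 and Cd53.

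Most of the tetraspanin genes that fell had a similar order over the CDAA arrays, which was also common among other genes that fell. For 6 of the 7, CDAA 3 was the lowest CDAA array, as for 47.5% of all 2255 genes that fell and 28.1% of all genes. For 6 of the 7, CDAA 4 was the highest, as for 55.6% of the genes that fell and 19.1% of all genes. Cd82, Tspan9 and Tspan12, which did not pass, had both. The pan-endothelial marker mean was also lowest on CDAA 3 (9.82) and highest on CDAA 4 (10.89) among the CDAA arrays, as were the LSEC markers. In all 7 the SD among CDAA arrays exceeded that among Std arrays, as it did in 19 of all 26 members and 4 of the 7 that rose. The share over all genes was not counted. Once the pan-endothelial mean, which itself differed between the diets, was a covariate, none of the 7 passed in limma, and their estimates lay between -0.47 and -0.01. At an unadjusted p under 0.05, 7 of the 26 tetraspanins and 3200 of the 24704 genes passed in that fit. Tspan8, Cd63, Cd9 and Tspan6 kept their call in it, and Tspan3, Tspan33 and Cd53 did not.

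**Figure D4:**
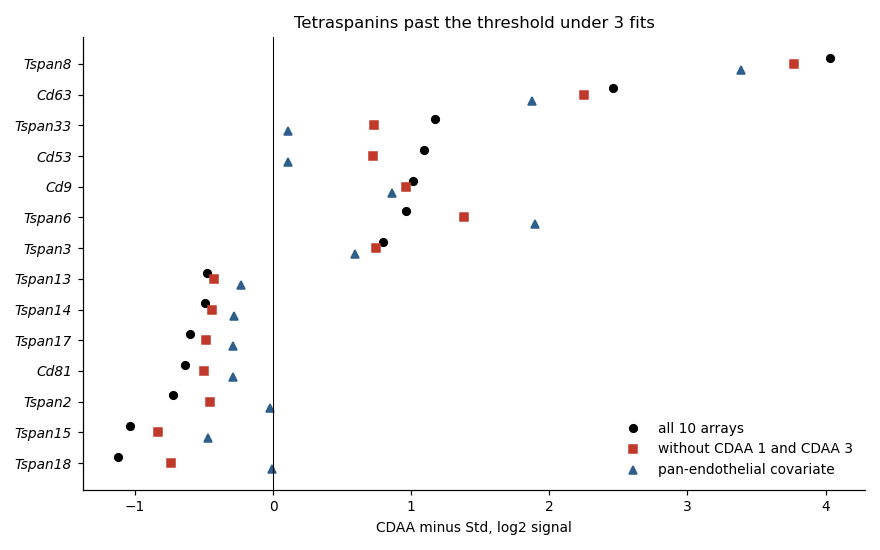
Change in log2 signal (horizontal axis) of the 14 tetraspanin genes past the threshold with all 10 arrays (black circles), without CDAA 1 and CDAA 3 (red squares) and in the fit with the pan-endothelial covariate (blue triangles). The estimates of Tspan18 and Tspan2 with the covariate lie at -0.01 and -0.02, while that of Tspan6 goes from 0.96 to 1.89. The covariate itself differed between the diets.

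Of the 3 leukocyte tetraspanins 1 rose and 2 did not pass, and all 3 were high on 1 control array, Std 3. Cd53 (12508_at), found on most leukocytes, read 7.48, 8.24, 8.95, 7.51 and 7.88 on Std 1 to Std 5 and 9.56, 8.90, 9.76, 8.61 and 8.69 on CDAA 1 to CDAA 5. Std 3 lay among the CDAA arrays, so the diets overlapped. Cd53 rose by 1.09 ± 0.30 (SE, limma adjusted p = 0.0265), but lost its call when CDAA 1, CDAA 3, Std 1, Std 4 or Std 5 was left out, with changes from 0.93 to 1.33 over all 10 single omissions. Without CDAA 1 and CDAA 3 together it was 0.72 (limma adjusted p = 0.160).

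Cd37 (12493_at), best known from B cells, read 7.33, 7.27, 8.67, 7.48 and 7.27 on Std 1 to Std 5 and 8.17, 7.69, 8.23, 8.15 and 7.85 on CDAA 1 to CDAA 5. Std 3 was the highest of all 10 arrays, and each CDAA array lay above the other 4 Std arrays. With all arrays the change of 0.42 did not pass (limma adjusted p = 0.308), whereas without Std 3 it was 0.68 and passed (limma adjusted p = 0.00545). Tspan32 (27027_at), a gene of blood cells, read 3.01, 2.84, 4.00, 2.76 and 2.87 on Std 1 to Std 5 and 3.62, 3.33, 3.88, 3.59 and 2.88 on CDAA 1 to CDAA 5. Here too Std 3 was the highest of all 10 arrays. Its change was 0.37 with all arrays (limma adjusted p = 0.367) and 0.59 without Std 3 (limma adjusted p = 0.0419), with both diet means below the array median. Among the Std arrays, Std 3 had the highest mean of neutrophil markers, as given above, and of recruited macrophage markers, at 5.28 against 4.37 to 4.54. The lymphocyte marker mean was 4.70 on Std 3 and 4.39 to 4.78 on the other Std arrays. The part of these cells in the values was not tested.

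**Figure D5:**
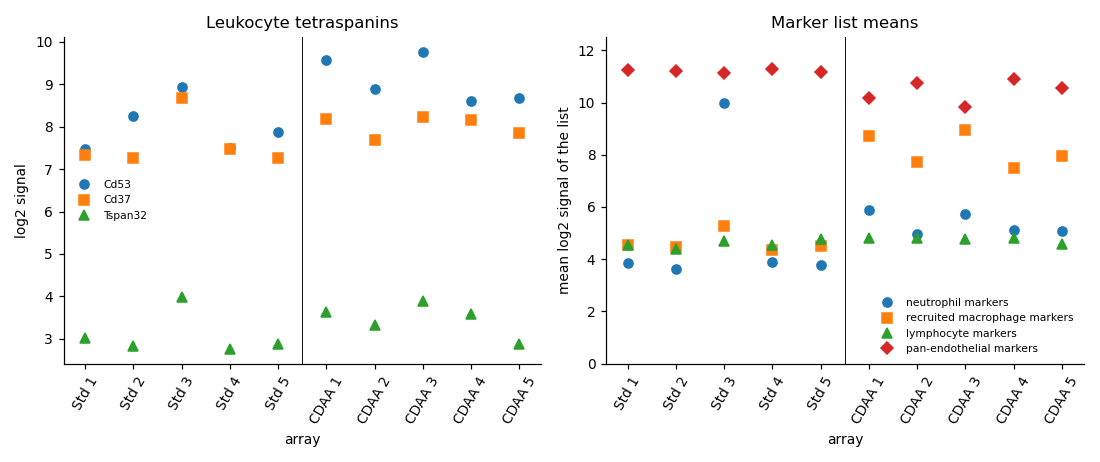
Left, log2 signal of the leukocyte tetraspanins Cd53, Cd37 and Tspan32 on each array; right, mean log2 signal of 4 marker lists on the same arrays, Std before and CDAA after the vertical line. On Std 3 the neutrophil mean is 9.99 and all 3 tetraspanins are the highest of the Std arrays.

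Among the remaining members, 2 rose, 2 fell and 4 did not pass. Tspan6 (56496_at), linked to vesicle release, read 5.17, 5.01, 5.10, 5.25 and 5.28 on Std 1 to Std 5 and 5.63, 6.44, 5.34, 6.46 and 6.74 on CDAA 1 to CDAA 5. All CDAA arrays were above the Std arrays, but here CDAA 3 and CDAA 1 were the lowest of their group. Tspan6 rose by 0.96 ± 0.23 (SE, limma adjusted p = 0.0144), and by 1.38 without CDAA 1 and CDAA 3. With the pan-endothelial covariate its estimate was 1.89 (limma adjusted p = 0.00377). That is more than the difference of any CDAA array from the Std mean, the largest being 1.58 on CDAA 5. The estimate was 3.34 with the recruited macrophage covariate (limma adjusted p = 0.0519) and 2.03 with the bile duct covariate (limma adjusted p = 0.979), and passed in neither. Those fits called 65 and 0 of all 24704 genes, and the pan-endothelial fit called 218. Each covariate itself differed between the diets. No other risen member had CDAA 3 as its lowest CDAA array, and 5 of the 7 had it as their highest, as did 50.6% of all 1851 genes that rose.

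Tspan3 (56434_at), a widely expressed member, read 7.16, 7.20, 7.22, 7.10 and 7.23 on Std 1 to Std 5 and 7.97, 7.71, 8.16, 7.92 and 8.14 on CDAA 1 to CDAA 5. The Std arrays were nearly level and every CDAA array exceeded them, and Tspan3 rose by 0.80 ± 0.10 (SE, limma adjusted p = 0.000345). Tspan2 (70747_at), known from myelinating glia, read 8.37, 8.47, 8.35, 8.49 and 8.41 on Std 1 to Std 5 and 7.57, 7.86, 7.01, 8.06 and 7.97 on CDAA 1 to CDAA 5. CDAA 3 was the lowest by a step, and Tspan2 fell by 0.73 ± 0.17 (SE, limma adjusted p = 0.0125), or by 0.46 without CDAA 1 and CDAA 3 (limma adjusted p = 0.0125).

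Tspan13 (66109_at) was the least firm of the falls. It read 7.45, 7.34, 7.65, 7.21 and 7.31 on Std 1 to Std 5 and 6.94, 6.99, 6.72, 7.33 and 6.58 on CDAA 1 to CDAA 5. CDAA 4 lay among the Std arrays, and the others were below them. Tspan13 fell by 0.48 ± 0.14 (SE, limma adjusted p = 0.0347), but did not pass with the replicate number as a block (limma adjusted p = 0.0622) or with array weights (limma adjusted p = 0.0563). It also lost its call when any single array other than CDAA 4 or Std 4 was left out (changes from -0.50 to -0.40 in those 8 fits).

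Tspan31 showed no overlap between the diets, at 9.59 to 9.82 in Std and 9.37 to 9.51 in CDAA, yet its small change of -0.24 missed the threshold (limma adjusted p = 0.0641), which it passed in the fit without genes below the median signal (limma adjusted p = 0.0394) and with a trended, robust variance model (limma adjusted p = 0.0450). Tspan4 and Tspan9, a member found on platelets, had changes of -0.40 (95% interval -0.77 to -0.04) and -0.26 (95% interval -0.53 to 0.02). Tspan11, a close relative of Cd151, had a change of -0.04 (95% interval -0.37 to 0.28). None of these 4 genes passed.

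Genes of proteins that work with tetraspanins moved in part. Over all genes 7.49% rose and 9.13% fell, and 35.1% of genes at or above the median signal were called in either direction. Of 8 EWI proteins and laminin-binding integrin chains, 3 rose and 1 fell. The integrin chains Itga3 and Itgb4 rose by 1.59 and 0.85, and Ptgfrn, whose EWI protein binds CD9 and CD81, by 0.72, while Igsf3 fell by 0.71. CD151 binds integrins built from the chains of Itga3, Itga6, Itgb1 and Itgb4. Of these, Itgb1 and Itga6 had changes of -0.11 and 0.09 and did not pass. Among 12 genes of endosomal sorting and vesicle release, where CD63 is cargo, 4 rose, 1 fell and 7 did not pass. Smpd3 rose by 0.85, Rab27b by 0.82, Chmp4b by 0.56 and the syntenin gene Sdcbp by 0.55, whereas Rab27a fell by 0.71. Whether these genes moved together with Cd63 was not tested. The lysosomal membrane genes Lamp1 and Lamp2 had changes of -0.14 and -0.41 and did not pass. Of 8 measured immune partners, 5 rose and none fell, led by the fungal receptor Clec7a (3.05) and the class II genes H2-Eb1 (2.58) and H2-Aa (2.35). Among the CDAA arrays their list mean was highest on CDAA 3 and lowest on CDAA 4. The recruited macrophage, stellate, Kupffer and hepatocyte marker means had the same highest and lowest arrays. What the mix of cells contributed was not tested. The median changes were 0.27 for the EWI and integrin list, -0.13 for the vesicle list, 1.30 for the immune partners, 0.70 for ADAM10 and its substrates and -0.70 for the norrin complex, beside -0.02 over all genes. None of 4 tetraspanins with other names (Upk1a, Upk1b, Prph2 and Rom1) passed in limma, the smallest adjusted p being that of Prph2 (0.259), and 3 of the 4 had both diet means below the array median.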

How the data were processed

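The deposited values are log2 signals, which per the submitters' processing notes the authors computed by RMA (robust multi-array averaging); its version, the array design and the genome build are not given in the sources used here. RMA corrects background, gives all arrays 1 distribution (median 3.89) and summarises each probe set. Scanner files are not used here, so these steps could not be varied. Of 25428 probe sets, 24705 carried 1 symbol, 0 carried more than 1 and 723 were unnamed. For the 1 gene with several probe sets the brightest was kept.

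All genes were fitted together with lmFit and eBayes of limma 3.58.1 (R 4.3.3), CDAA against Std, two-sided. The procedure was tested on simulated data. The members, gene lists and tests were chosen with earlier results of these data known. By the rule, every member is named, with each array's value for the largest changes, for Cd9, Cd63, Cd81, Cd151, Cd37, Cd53, Tspan8 and Tspan12, and for members whose call 1 array changed. Each list of partner genes gives up to 3 genes; Itgb1, Itga6, Igsf3, Chmp4b, Sdcbp, Lamp1, Lamp2, Notch1, Notch4, Cdh5, Adam10 and Ndp were added after their values were seen. No label states that replicate numbers pair arrays, and the main fit is unpaired. Correlations of same-numbered deviations were 0.0164 to 0.249, all positive but below 0.1 for 2 of 5. Those of differently numbered arrays ran from -0.175 to 0.173, and whether same-numbered arrays share an effect is not settled.

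Other fits used the replicate block, renormalization, filters on dim genes, other variance models, array weights, probe set means, a test against a change of 0.5 (treat), marker means as covariates, and omitted arrays. The number of arrays limits the precision.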

Additional observations from a re-analysis of the deposited data

Results flagged for a closer look

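In 52 groups of 5 arrays (26 genes in each diet), 4 single arrays lay far from the rest of their group, with a gap to the nearest array of more than 0.71 of the range of the group. Chance gives this in about 1 of 20 groups, so some flags among 52 groups can arise by chance alone. All the groups come from the same 10 arrays and are not independent. Cd37 read 8.67 on Std 3 against 7.27 to 7.48 on the other Std arrays. Tspan32 read 4.00 on Std 3 against 2.76 to 3.01. Both lie on the array whose neutrophil marker mean was 9.99. Cd82 read 8.55 on CDAA 3 against 8.84 to 8.92 on the other CDAA arrays. Tspan15 read 9.07 on Std 2 against 8.84 to 8.88 on the other Std arrays.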

How the results depend on the processing

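Single omissions of an array gave 2956 to 4572 called genes against 4106, 6 to 9 risen and 6 to 7 fallen tetraspanins, and a Tspan8 change of 3.75 to 4.21. With the replicate block 4178 genes, 7 risen and 6 fallen tetraspanins were called, and Tspan13 lost its call. Against a change of 0.5 (treat), 452 genes passed, with 3 tetraspanins risen (Tspan8, Cd63 and Cd9) and 0 fallen (9 members and 1456 genes at an unadjusted p under 0.05). Without CDAA 1 and CDAA 3, 2612 genes passed, and without Std 3 as well, 2689, an omission chosen after seeing the data. Fewer samples enter these fits. Once the pan-endothelial mean was a covariate 218 genes passed in limma, with 4 tetraspanins risen and 0 fallen (7 members and 3200 genes at an unadjusted p under 0.05). With the bile duct mean 0 genes passed (1108 at an unadjusted p under 0.05), with 0 tetraspanins risen or fallen (3 members at an unadjusted p under 0.05) and Tspan8 at 0.87. With the recruited macrophage mean 65 genes passed, with 0 tetraspanins risen or fallen (7 members and 3197 genes at an unadjusted p under 0.05) and Tspan8 at 1.69. Each covariate itself differs between the diets. No estimate that changed sign passed. With the macrophage mean these were Tspan33 at -1.53, Cd53 at -2.32, Cd37 at -1.57, Tspan32 at -1.73, Tspan11 at 1.01, Tspan1 at 0.0044, Tspan9 at 0.81, Tspan12 at 1.31, Tspan4 at 0.47, Cd151 at 1.17, Tspan17 at 0.27, Cd81 at 0.37, Tspan2 at 1.01, Tspan15 at 0.35 and Tspan18 at 1.69. With the bile duct mean they were Cd53 at -0.31, Cd37 at -0.80, Tspan32 at -1.02, Cd82 at -0.068, Tspan1 at 0.028, Tspan9 at 0.24, Tspan12 at 0.65, Tspan4 at 0.24, Cd151 at 0.32, Tspan17 at 0.023 and Tspan2 at 0.13. With the pan-endothelial mean they were Tspan32 at -0.071, Tspan11 at 0.33, Tspan1 at 0.036, Tspan9 at 0.19, Tspan12 at 0.31 and Cd151 at 0.18. Without CDAA 1 and CDAA 3 Tspan11 was at 0.091, and without Std 3 as well Tspan11 was at 0.029 and Tspan1 at 0.017. Over single omissions Tspan10 ranged from -0.024 to 0.20 and Tspan11 from -0.13 to 0.065. The cause of these changes was not tested. The deposited values give no detection calls, so a change of a dim gene has no known floor.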

Other observations

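Some tetraspanin genes are neighbours on the chromosome in RefSeq (GRCm38.p6), and their changes can be set side by side. Tspan18 and Cd82 have no other protein-coding gene between them, and changed by -1.12 and 0.10. Tspan32 and Cd81, likewise adjacent, changed by 0.37 and -0.64. Tspan11 and Tspan9, also adjacent, changed by -0.04 and -0.26. Cd151 and Tspan4, with 1 protein-coding gene between them, changed by -0.42 and -0.40. Of these 8 genes Tspan18 and Cd81 passed.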
